A study of Mus musculus with 2 samples.

Results

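The 7 genes Dmpk, Six5, Atxn7, Htt, Atxn1, Atxn2 and Atn1, the mouse counterparts of human genes of repeat-expansion disorders, were examined for CTCF binding in mouse embryonic stem cells (ESCs). They were chosen by name, by a rule that uses no measured value but with earlier results of these data known, from the 22367 protein-coding genes of the GENCODE M1 annotation on chromosomes 1 to 19, X and Y. The region of a gene was its body plus 20 kb on each side. Dmpk and Six5 are neighbours whose regions overlap, so the 7 genes gave 6 separate loci, together 1.03 Mb.

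The measurements were 2 chromatin immunoprecipitation sequencing (ChIP-seq) libraries from R1/E ESCs, an established mouse line. Both came from cells that carried, beside their own alleles, a bacterial artificial chromosome with Ctcf fused at its C-terminus to a LAP tag, which contains GFP. The CTCF-GFP ChIP used a goat antibody against eGFP and the control a goat IgG isotype antibody, and the label of the control also calls it input DNA. Each used 30 mio. cells crosslinked with 1% formaldehyde, sonicated to about 500 bp, and 5 µg of antibody, and both were grown in medium with serum and LIF. The anti-eGFP antibody reports only the tagged protein. There was 1 library for each antibody, so no difference between them has a replicate check, and the intervals given here cover counting error only.

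CTCF is a zinc finger protein that binds a long, directional DNA motif, acts at insulators and holds cohesin at the borders and bases of chromatin loops. Repeat-expansion disorders arise when a short tandem repeat in or near a gene lengthens. A CAG repeat that encodes glutamine expands in HTT (Huntington disease), ATXN1, ATXN2 and ATXN7 (spinocerebellar ataxias) and ATN1 (dentatorubral-pallidoluysian atrophy), and a CTG repeat in the 3′ untranslated region (UTR) of DMPK expands in myotonic dystrophy, just upstream of SIX5. DMPK encodes a protein kinase, SIX5 a homeodomain transcription factor, ATXN7 a subunit of the SAGA coactivator complex, ATXN1 and ATN1 nuclear proteins that act in transcriptional repression, and ATXN2 an RNA-binding protein.

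The binding sites themselves are shown first, because their letters carry the direction of the bound sequence. Each is the best match to a CTCF matrix within 150 bp of a summit, the point of highest tag overlap in a deposited peak. Capitals mark the 19 bp match and lower case the 5 bases on each side, read 5′ to 3′ on the matching strand in mm9. At Dmpk and Six5, 4 matches are shown. The first, from an intron of Rsph6a upstream of Dmpk, is on the strand of Dmpk, the others on the opposite strand.
Rsph6a intron, chr7:19655023-19655051, plus strand: tttgaCAGCCAGAAGAGGGCGCTGttggg
Rsph6a intron, chr7:19659039-19659067, minus strand: cacagTGGCCAGAAGGGGGCAGAAgatgc
Dmpk exon, chr7:19674349-19674377, minus strand: cacagGCCCCAGCAGGGGGCAGTCgtgct
Gm4969 intron past Six5, chr7:19700225-19700253, minus strand: tagacATTCCAGAAGAGGGCGCTAgatct

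Htt and Atxn2 lie on the plus strand of chromosome 5, and all of their matches read along the gene.
Htt intron, chr5:35148858-35148886, plus strand: cctctGTGCCAGAAGAGGGCATCAgatcc
Htt intron, chr5:35228088-35228116, plus strand: gtgccTGGCCTCTGGGGGGTGCTGtcctc
Past the Htt end, chr5:35258631-35258659, plus strand: catgcTCAGCACTAGGGGGCAGCAatgaa
Atxn2 intron, chr5:122184209-122184237, plus strand: cgtggTGGCCAGAAGAGGGCACTTgccct
Atxn2 intron, chr5:122216560-122216588, plus strand: catagAGGCCAGCAGAGGGGGTTAgatcc
Atxn2, match beside the summit in a coding exon, chr5:122265168-122265196, plus strand: caggcTGGCCAGAGGTGGGCAGCGttcaa

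Of the remaining 14 matches, 5 are shown: the match beside the start of Psmd6 past Atxn7, the Atxn1 match with the best score of all 24, an Atxn1 match used in a comparison with Htt, and both matches of Atn1.
Past the Atxn7 end, chr14:14953524-14953552, minus strand: gccgaTGTCCAGCAGGGGACGCTGcgggc
Atxn1 intron, chr13:45791569-45791597, plus strand: catggAGGCCAGTAGAGGGCACTGaatct
Atxn1 intron, chr13:46027448-46027476, minus strand: cacggAGGCCAGAAGAGGGCATCAgatcc
Atn1 exon, chr6:124695574-124695602, plus strand: cctccCGTCCACCAGGTGGCGGAGcgacc
Upstream of Atn1, chr6:124709537-124709565, minus strand: agctgTGGCCATTAGGGGGAGCCCaagtt

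The 6 loci held 33 deposited CTCF summits. Each of the 7 genes had at least 2 in its region, where 70.7% of all protein-coding gene regions held at least 1 and 49.4% at least 2. In gene bodies, 6 of the 7 genes held a summit, all but Six5, against 36.0% of all protein-coding genes. Gene bodies differ in length, and Atxn1 and Htt are long, so densities are given for each gene. The loci together held 3.20 summits per 100 kb, the union of all protein-coding gene regions 1.90 and the genome 1.27. Of the 33 summits, 20 lay in introns of a listed gene, 4 in its exons, 5 in a neighbouring gene and 4 between genes.

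The density of summits differed among the genes. Dmpk, with 5 summits in 50.0 kb, had 10.01 per 100 kb, the 97.4th percentile of all protein-coding gene regions, and Six5, with 3 in 43.8 kb, had 6.85, the 89.9th percentile. Atn1 (2 summits, 3.49 per 100 kb), Atxn2 (5, 3.44), Atxn7 (4, 2.97) and Atxn1 (13, 2.89) lay between the 62.3rd and the 67.2nd percentile. Htt, with 3 summits in 191 kb, had 1.57 per 100 kb, the 41.0th percentile and below the median of all gene regions of 2.09. With 1 library and 2 to 13 summits per gene, the order among these 4 rests on differences of a summit or so.

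**Figure D1:**
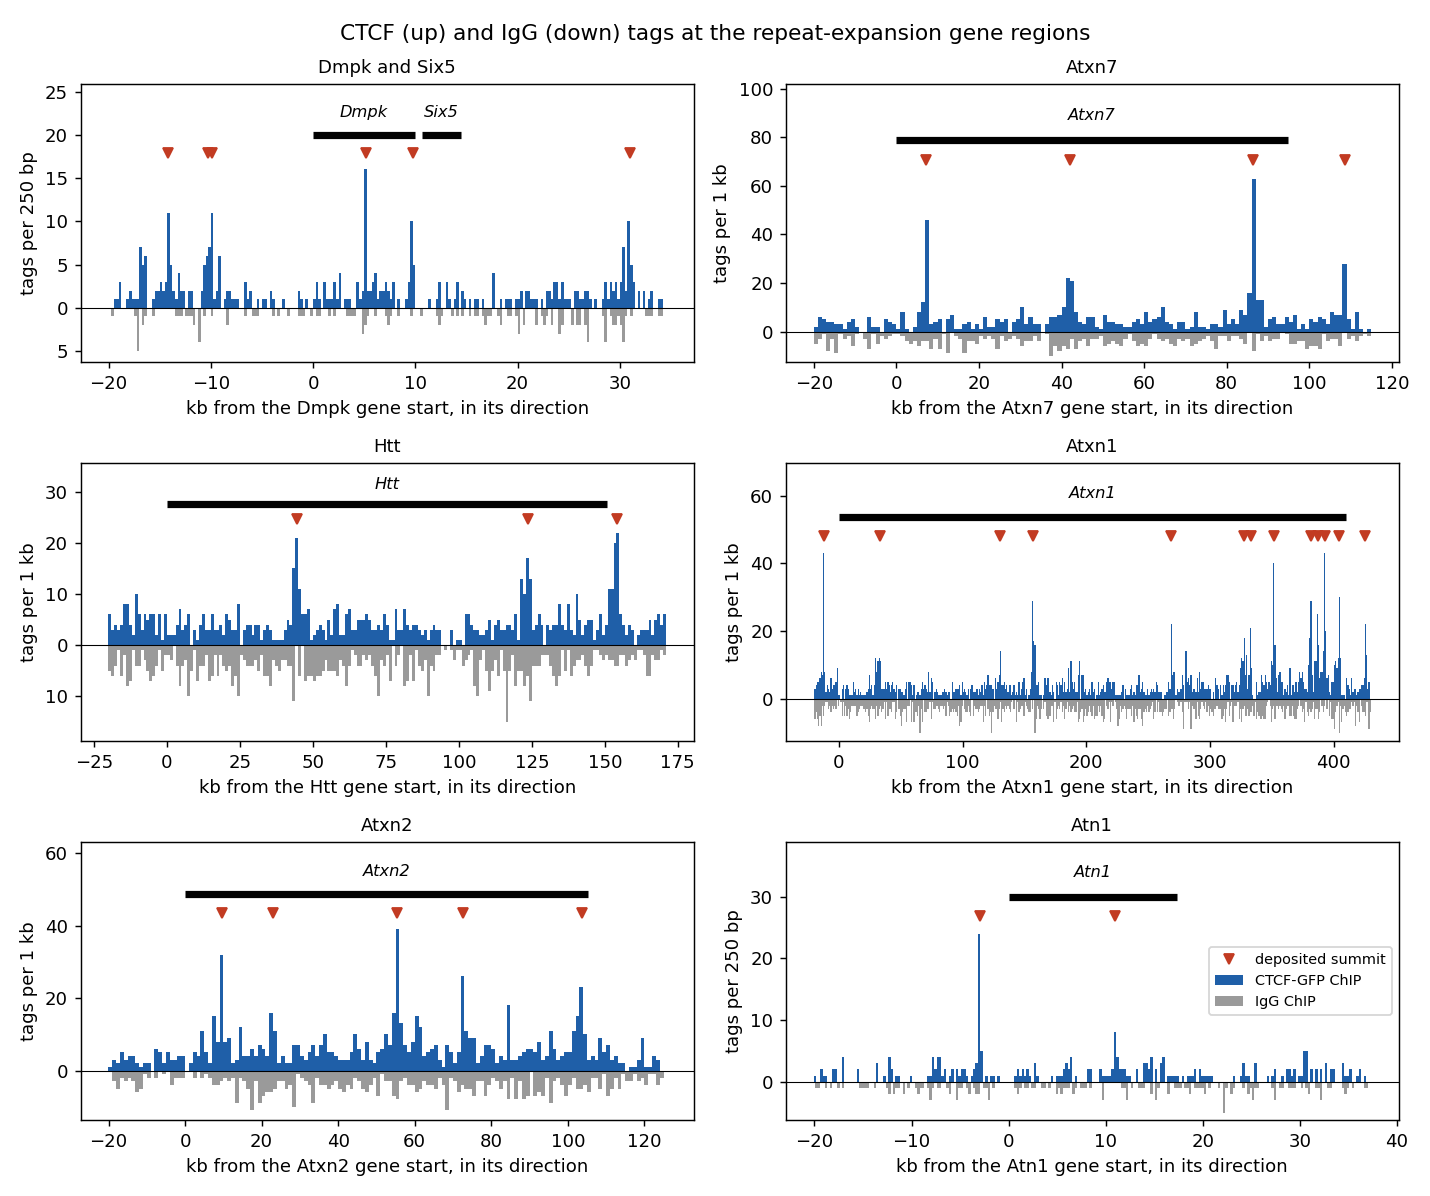
Tags of the CTCF-GFP ChIP (blue, upward) and the IgG ChIP (grey, downward) along the 6 loci, per 250 bp for Dmpk and Six5 and for Atn1 and per 1 kb for the others, against the distance in kb from the gene start in the direction of transcription. Black bars are gene bodies and red triangles the 33 deposited summits, of which 13 are at Atxn1 and 6 at Dmpk and Six5.

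The peaks at Dmpk and Six5 were many, but their scores were low. All 6 summits of this locus had scores (-10 log10 of the peak caller's p) below 100, between 66.74 and 95.52. Their heights (the number of overlapping tags at the summit) ran from 8 to 14, the 9.11th to the 59.8th percentile of all summits. At a score of at least 100 the locus held 0 summits, the other 5 genes held 17, and the nearest summit to the Six5 start was 24181 bp away instead of 906 bp. Among all 33788 deposited peaks, 59.2% had a score of at least 100, and among the 33 of these loci 51.5%.

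Inside Dmpk (chr7:19669198-19679170, plus strand) there were 2 summits. The summit at 19674360, 5162 bp past the Dmpk start, lay in an exon of a non-coding Dmpk transcript and had a height of 14, with 22 CTCF and 6 IgG tags in the peak, a ratio of 3.49 after scaling to library totals. The summit at 19678987 lay in the Dmpk 3′ UTR, 183 bp before the end of Dmpk and 906 bp upstream of the start of Six5. It had a height of 9, with 17 CTCF and 1 IgG tags in the peak. No matrix match at p 1e-05 lay within 150 bp of it, but the same peak contained a match (p 6.11e-07) 358 bp before the summit and 541 bp before the Dmpk end, also in the UTR and reading against Dmpk.
Dmpk 3′ UTR, chr7:19678615-19678643, minus strand: ctcccCGGCCGCCAGGTGGCAGGCctgga
Around the Six5 start, within 1 kb on each side, 11 CTCF tags and 1 IgG tag were counted, and around the Dmpk start 6 and 4. Six5 was the only listed gene with a summit within 1 kb of its start, where 7.91% of all protein-coding genes have one. The body of Six5 (chr7:19679893-19683694, plus strand) held no summit.

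The upstream summits of this locus lay in introns of Rsph6a, which encodes a radial spoke head protein, 14170, 10263 and 9840 bp before the Dmpk start. Their peaks held 19, 14 and 14 CTCF tags and 0, 0 and 1 IgG tags. The last lay 16544 bp past the end of Six5, in an intron of Gm4969, with 16 CTCF tags and 1 IgG tag. Read along the chromosome, the 4 matches were oriented plus, minus, minus, minus.

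Atxn7 (chr14:14845005-14939810, plus strand) had the highest summits of the 7 genes. Its 4 heights were 25, 17, 40 and 22 in genome order, all at or above the upper quartile of 17 over all deposited summits. The summit of height 40, in an intron 86318 bp past the gene start, was at the 99.7th percentile of height, and its score of 430.21 was at the 98.5th percentile. Its peak held 75 CTCF and 6 IgG tags, a ratio of 11.9. Neither this summit nor the one of height 25, 7121 bp past the gene start, had a matrix match at p 1e-05 within 150 bp, although their best letters reached p 1.68e-05 and p 6.44e-05. Among all summits of height 30 or more, 9.86% had no match, and among those of height 20 to 29, 12.7%. Both matches that were found at this locus read against Atxn7. The last summit lay outside the gene, 13749 bp past its end and 61 bp upstream of the start of Psmd6, a proteasome subunit gene, with 28 CTCF tags and 0 IgG tags. The 100 bp on each side of it held 13 CpG dinucleotides, where the median summit of the genome held 2.

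Htt (chr5:35104389-35255183, plus strand) had summits of low and even height. Their heights were 10, 9 and 10, at most the 27.0th percentile of all summits. Their peaks held 27, 17 and 28 CTCF tags and 2, 3 and 5 IgG tags. The scores of these peaks were 116.48, 54.66 and 115.1, where the median over all deposited peaks was 116.96. The nearest summit to the Htt start was 44470 bp inside the gene, the largest such distance of the 7 genes. The second was an intron summit 26999 bp before the gene end, with a score of 54.66 close to the minimum of 50 in the deposited list. The third lay 3373 bp past the end, 8 bp upstream of the annotated start of A930005I04Rik.

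At Atxn1 (chr13:45650262-46060345, minus strand), by far the longest of the genes, 11 of the 13 summits lay in introns of the gene, 1 upstream and 1 past its end in an intron of Gmpr, which encodes a GMP reductase. Heights ran from 8 to 22 with a median of 12. The highest was the upstream summit, 12076 bp before the gene start, with 45 CTCF and 5 IgG tags in its peak. The summit with the highest score, 392.11, lay in an intron 16998 bp before the gene end, where the peak was 1920 bp wide and held 70 CTCF and 4 IgG tags. The summits were denser toward the end of the gene: the distances of the 11 inside it ran from 32872 to 404171 bp past the start, and 7 of them were 327124 bp or more past it. The 10 matches were oriented 6 along Atxn1 and 4 against it. The peak with the highest score counts as along by its match within 150 bp of the summit (p 1.24e-06). It also held a better match (p 1.58e-08) farther from the summit, which read against Atxn1 and is not in these counts.

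All 5 summits of Atxn2 (chr5:122161346-122266502, plus strand) lay inside the gene, at 9540, 23011, 55240, 72493 and 103778 bp past its start, with heights of 11, 14, 21, 9 and 12. The last, 1378 bp before the gene end, was in a coding exon, the only summit of the 33 there. Atxn2 also had the highest share of IgG tags in its peaks. The peak at 55240 bp held 41 CTCF tags, but with 12 IgG tags its ratio was 3.25 and its score 79.08. Over its 5 peaks the ratio was 4.58 (95% interval 3.01 to 7.22), the lowest of the 6 loci, although its interval overlapped that of each other locus. The other loci had ratios from 6.85 at Htt to 10.8 at Dmpk and Six5. Over all deposited peaks the ratio was 8.73 (8.68 to 8.79), above the Atxn2 interval and within that of each other locus. As the peaks were called on these libraries, these ratios describe the called peaks and are not independent evidence of binding.

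Atn1 (chr6:124689207-124706542, minus strand) had 1 summit inside and 1 upstream. The inner summit, of height 8, lay 10960 bp past the start in an exon of a non-coding Atn1 transcript, with 13 CTCF tags and 0 IgG tags in its peak. The 100 bp on each side of it had a GC content of 70.6% and 21 CpG dinucleotides, the most of the 33. The upstream summit, 2905 bp before the start, had a height of 22, with 32 CTCF and 4 IgG tags. The matches at both read toward each other.

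**Figure D2:**
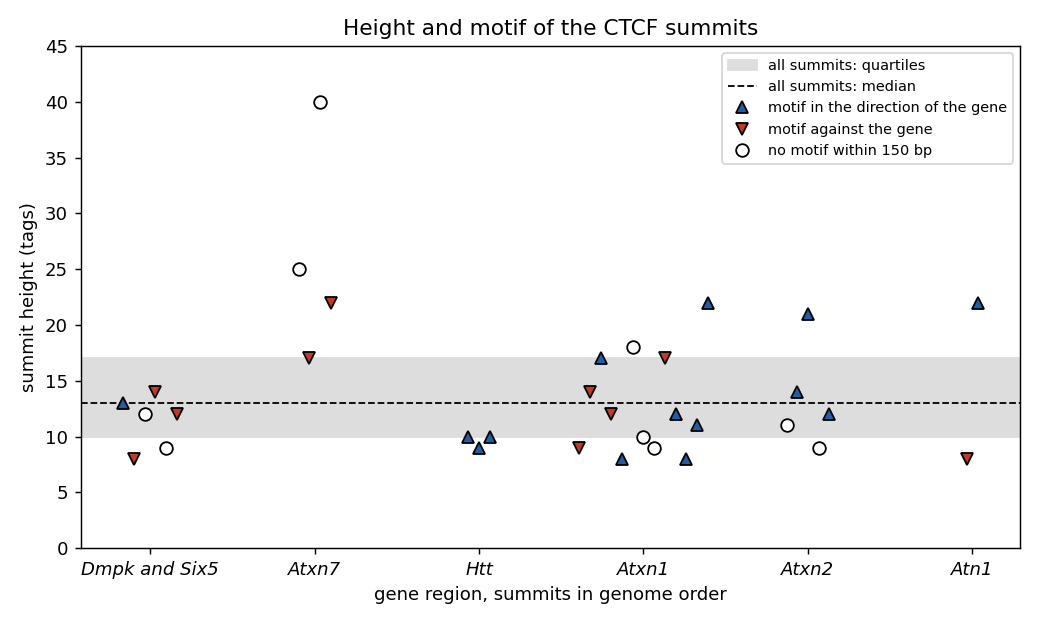
Height in tags (y axis) of each of the 33 summits by locus (x axis, in genome order within a locus), with the quartiles and median of all deposited summits as a grey band from 10 to 17 and a dashed line at 13. Upward triangles have a motif along the gene, downward triangles against it and open circles no motif within 150 bp; the 2 highest points, both at Atxn7, are open circles.

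Over all loci, the summits resembled those of the whole genome. The median height was 12 (quartiles 9 and 17) against 13 (10 and 17), the median score 113 against 117, the median peak width 813 bp against 832 bp and the median GC content within 100 bp of the summit 48.8% against 46.8%. A match at p 1e-05 within 150 bp was found at 24 of the 33 summits, 72.7% (95% Wilson interval 55.8 to 84.9), and at 73.6% of all 33756 summits on these chromosomes. The 7 letters AGAGGGC, searched on the strand of the match, occurred in 10 of the 24 matches (41.7%) and in 34.8% of all 24843 matches, and AGGGGGC in 5 (20.8%) and in 16.0%. Of the 9 summits without a match, 3 had one elsewhere in the same peak.

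The direction of the matches was 14 along the gene and 10 against it. Htt (3 of 3) and Atxn2 (3 of 3) had matches along the gene only, and Atxn7 (2 of 2) against it only, but with so few matches per gene these are descriptions. Inside the gene bodies 10 read along the gene and 6 against it, and over all protein-coding gene bodies 50.7% read along it. Among the 18 pairs of neighbouring matches within a locus, 5 converged, 2 diverged and 11 read the same way, while in the genome 24.9% converged and 50.2% read the same way. Convergent pairs are the arrangement known from the bases of cohesin loops, which were not measured here.

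The letters of the motif did not by themselves tell which places had a summit. The 6 loci contained 177 matches at p 1e-05, of which 25 (14.1%, interval 9.75 to 20.0) had a summit within 150 bp, and in the genome 10.2% did. Of the 23 matches at p 1e-07, 11 (47.8%, interval 29.2 to 67.0) had one, against 44.2% in the genome. Of the other 12, 2 were inside a peak but farther from its summit. The remaining 10 had from 1 to 7 CTCF tags (median 2.5) and from 0 to 2 IgG tags within 150 bp. The best of these, in an intron of Htt, scored p 7.24e-09 but had 1 CTCF tag and 0 IgG tags within 150 bp and 10 CTCF and 10 IgG tags within 1 kb.
Htt intron without a summit, chr5:35163603-35163621, plus strand: ATGCCAGAAGAGGGCACTG
The Atxn2 intron match shown above at chr5:122184209-122184237, with nearly the same score (p 7.95e-09) and a like core, had 15 CTCF and 3 IgG tags within 150 bp.

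One Htt match and one Atxn1 match shared the longest stretch of any 2 matches at these genes, 22 bases.
Shared by Htt and Atxn1: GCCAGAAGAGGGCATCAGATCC
This stretch occurred 1067 times in the genome, on either strand. A summit lay within 150 bp of 261 of the copies (24.5%, interval 21.98 to 27.1), and on average 7.04 CTCF and 0.775 IgG tags were counted within 150 bp of a copy. The sequence at these sites of Htt and Atxn1 is therefore a repeated one, and most copies had no deposited summit.

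The nearest summit lay closer than the median of all genes to the end of all 7 genes and to the start of 6. From the gene start to the nearest summit the distance was 906 bp at Six5, 2905 bp at Atn1, 5162 bp at Dmpk, 7121 bp at Atxn7, 9540 bp at Atxn2, 12076 bp at Atxn1 and 44470 bp at Htt, a median of 7121 bp, where all protein-coding genes had a median of 15553 bp (quartiles 5276 and 44675). Within 5 kb of the start, 2 of the 7 genes had a summit, against 24.1% of all genes. From the gene end the distance was 183 bp at Dmpk, 1378 bp at Atxn2, 3373 bp at Htt, 4707 bp at Six5, 5912 bp at Atxn1, 6375 bp at Atn1 and 8487 bp at Atxn7, all below the median of all genes of 15002 bp. Within 5 kb of the end, 4 of the 7 had a summit, against 24.6%. The summit nearest to the Dmpk end, in its 3′ UTR, is also the nearest to the start and the end of Six5. With summits of a score of at least 100 only, the median distance from the end was 20240 bp instead of 4707 bp. No median over all genes is given at that score, so 20240 bp cannot be set against 15002 bp.

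**Figure D3:**
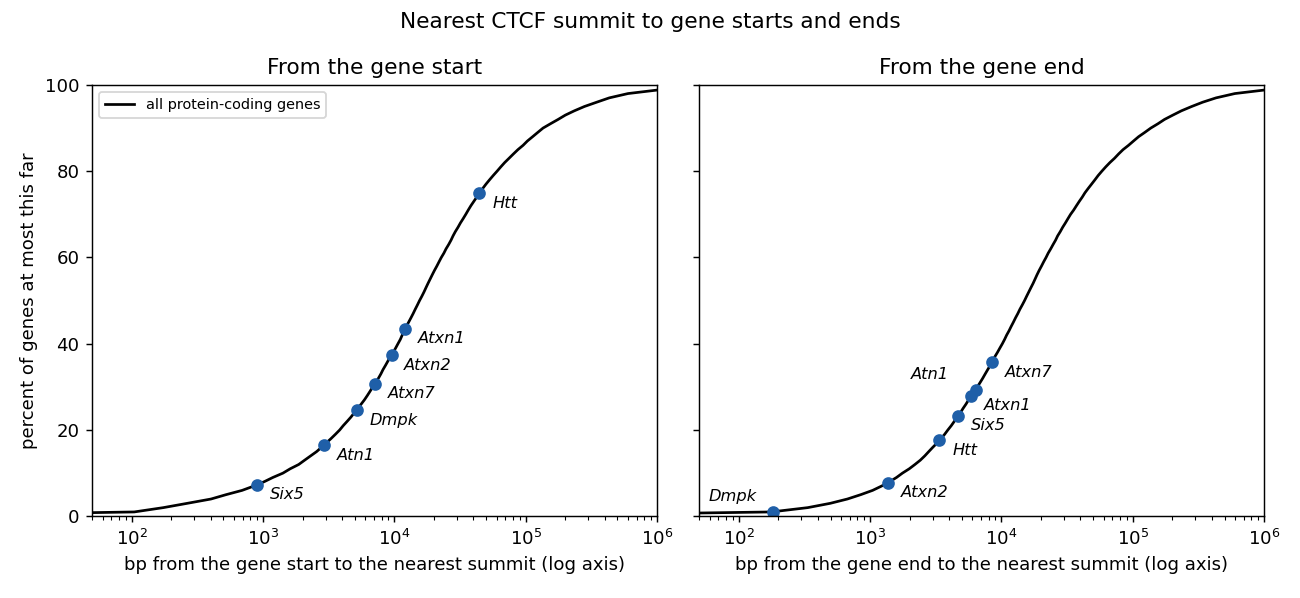
Distance from the gene start (left) and the gene end (right) to the nearest CTCF summit in bp on a log axis, against the percent of all protein-coding genes that have a summit at most that far away (black curve). Blue points are the 7 genes, which lie on the curve by construction; from the end all 7 are at or below the 35.7th percentile, with Dmpk at 183 bp.

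Runs of CAG or CTG in the exons of the 7 genes are short in the mouse reference, and those of at least 4 units had no summit within 5 kb. The longest uninterrupted run of CAG or CTG on the transcribed strand of the exons reached the minimum of 4 units in 3 of the 7 genes. The runs are shown with their flanks, the run in capitals.
Atxn7 coding exon, 5 CAG units, chr14:14845670-14845684 without the flanks, plus strand: cgcccggCAGCAGCAGCAGCAGccacagc
Htt coding exon, 4 CAG units, chr5:35104616-35104627 without the flanks, plus strand: cagcagcaaCAGCAGCAGCAGccaccgccg
Atxn2 coding exon, 6 CAG units, chr5:122245069-122245086 without the flanks, plus strand: cattgaCAGCAGCAGCAGCAGCAGcaactg
The nearest summit was 6449 bp from the Atxn7 run, 44238 bp from the Htt run and 11238 bp from the Atxn2 run. None of the 3 was within 5 kb, where 24.5% of the 1552 runs of at least 4 units in exons of all protein-coding genes had a summit, and the median distance over those runs was 13247 bp. Within 1 kb of the runs, 6 CTCF and 3 IgG tags were counted at Atxn7, 6 and 3 at Htt and 16 and 8 at Atxn2. The Atxn7 and Htt runs stood near the gene start, 672 and 232 bp into the gene, and were read as glutamine codons, in Htt within an in-frame run of 7 CAG or CAA codons. The Atxn2 run stood 83731 bp into the gene and was not read as glutamine, since the longest in-frame run of CAG or CAA codons in Atxn2 was 3.

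In the other 4 genes no run reached 4 units. Dmpk had 2 runs of 3 CTG units. The first, in an exon 5263 bp into the gene and outside the 3′ UTR, lay 101 bp from the summit at 19674360. The other, in a coding exon, lay 1136 bp from the summit in the 3′ UTR. Atn1 had 3 runs of 3 units, at 1260, 2268 and 6327 bp from its inner summit. No share over all genes is given for runs of 3 units, so these distances are descriptions only. Exons of Six5 and Atxn1 held no run of 3 or more. Where the human repeats correspond to in the mouse genes was not determined, since no alignment between the species was used.

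Outside the deposited peaks the loci differed in the CTCF to IgG tag ratio, scaled to library totals. At Dmpk and Six5, 248 CTCF and 126 IgG tags lay outside the peaks, a ratio of 1.87 (95% interval 1.51 to 2.34). At Atxn2 there were 736 and 528, a ratio of 1.33 (1.19 to 1.49), and at Atn1 213 and 157, a ratio of 1.29 (1.05 to 1.60). Atxn7 (538 and 491 tags, ratio 1.04, interval 0.921 to 1.18), Atxn1 (1634 and 1511, 1.03, 0.959 to 1.10) and Htt (756 and 770, 0.935, 0.844 to 1.03) had intervals that included 1. Scaled to the tags outside the deposited peaks instead, the intervals of Atxn7 (1.16, 1.03 to 1.32) and Atxn1 (1.15, 1.07 to 1.23) lay above 1 and that of Htt (1.04, 0.941 to 1.15) still included it. Among all protein-coding gene regions with at least 50 tags outside peaks, 39.0% had an interval above 1 and the median ratio was 1.09.

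The ratio moved with base composition. Gene regions were split into 5 classes of equal size by GC content. The median ratio was 0.789 in the class with the lowest GC content and 0.947, 1.09 and 1.28 in the following ones, and reached 1.54 in the class with the highest. The Dmpk region had a GC content of 53.1%, Six5 52.8% and Atn1 52.0%, all in the highest class, while Atxn2 (45.8%) and Atxn1 (44.6%) were in the middle class and Htt (43.2%) and Atxn7 (42.4%) in the second. Against the quartiles of their own class, the Dmpk region (1.90) lay above the upper quartile of 1.78, the Six5 region (1.75) below it and within the quartiles, Atn1 (1.29) below the lower quartile of 1.32 and Atxn2 (1.33) above the upper quartile of 1.28, and the intervals of the 3 that lay outside the quartiles reached into them. The place of Atxn2 depended on the class border. Its GC content of 45.84% was just below the upper edge of the middle class, 45.87%. Its ratio lay within the quartiles of the following class, whose median was 1.28. The part of GC content in the ratios was not tested.

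**Figure D4:**
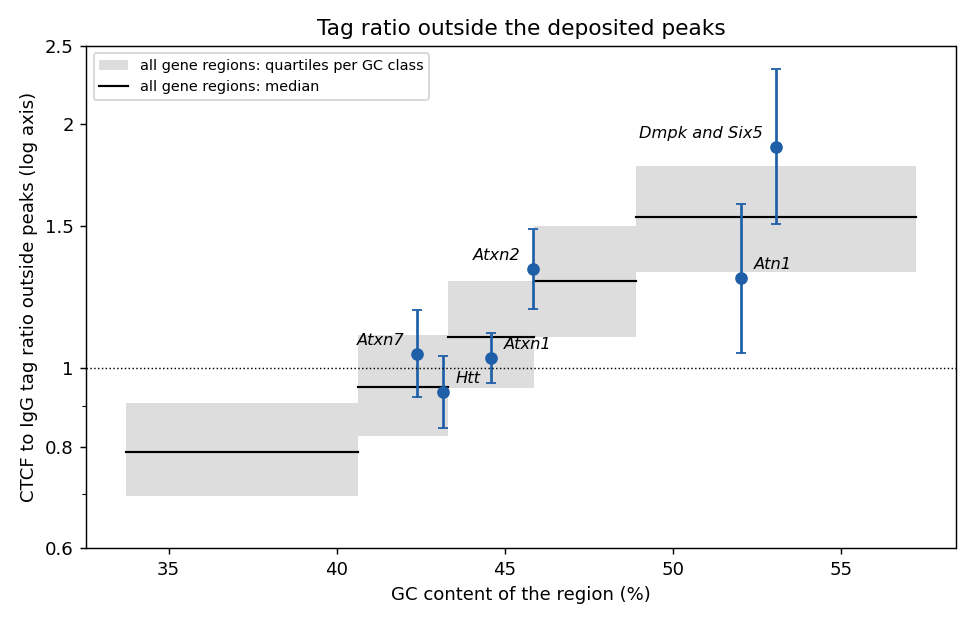
CTCF to IgG tag ratio outside the deposited peaks (y axis, log scale) against the GC content of the region in percent (x axis). Points are the 6 loci with 95% exact intervals (Dmpk and Six5 at the GC content of the Dmpk region), grey boxes the quartiles and black lines the medians of all protein-coding gene regions in 5 classes of GC content, which rise from 0.789 to 1.54.

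A wider list of 23 further mouse counterparts of repeat-expansion genes was described in the same way. At least 1 summit lay in the region of 16 of the 23, at least 2 in that of 13, and in the body of 10. Among all protein-coding genes these shares were 70.7%, 49.4% and 36.0%. The 23 genes held 50 summits in all. Their median was 1.79 per 100 kb, against 3.44 for the 7 genes and 2.09 for all protein-coding gene regions. None had a summit within 1 kb of its start, against 7.91% of all protein-coding genes. Within 5 kb, 4 of the 23 had one, against 24.1%. Of the polyglutamine genes among them, Atxn3 (3 summits), Cacna1a (14, a calcium channel subunit) and Tbp (2, the TATA-binding protein) had summits in their regions. The highest densities were at Cstb (7.15 per 100 kb), which encodes the protease inhibitor cystatin B, Foxl2 (7.06) and Hoxa13 (6.95), both transcription factor genes with polyalanine tracts. Fmr1, Cnbp, Zic2 and Sox3 were among the genes without a summit. Of the 5 genes on the X chromosome 4 had none, and of the 18 on autosomes 3 had none. The X chromosome as a whole held 0.318 summits per 100 kb and chromosomes 1 to 19 held 1.34. Whether the lower density on X bears on these genes was not tested.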

How the data were processed

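CTCF-GFP ChIP and IgG ChIP of R1/E ESCs were each 1 library. The authors deposited 35 bp tags, each with a count of 1 (8391191 CTCF and 7988889 IgG tags, no position and strand repeated within a library), and, for CTCF, 33788 peaks with a score (-10 log10 p, at least 50) and summits whose deposited signal is the tag height. The submitters' processing notes name MACS 1.4 and mm9, and the aligner is not given in the sources used here. The chromosome names and GENCODE M1 genes of NCBIM37, which is mm9, were used. Tags were moved 93 bp toward the middle of their fragment, whose length at the 1000 best peaks was 186 bp. Ratios were scaled to library totals with exact intervals (Clopper-Pearson, 95%), and shares have Wilson intervals. The CTCF matrix (19 bp, pseudocount 1) was built from 192 sequences of the study's supplementary motif table, of which only part was held, reverse-complemented where listed on the minus strand. It was scanned over both strands at p 1e-05 with base frequencies 0.29 (A, T) and 0.21 (C, G). These sequences were CTCF motif matches at binding sites of the cohesin subunit RAD21 in ESCs, not at CTCF peaks as such. On simulated data 200 of 200 planted motifs were recovered at their place and strand. The 22-base stretch, the p 1e-07 matches, the GC classes and the in-frame codon runs were chosen after seeing the data, and the members and lists were chosen with earlier results of these data known. All summits in the regions of the 7 genes are described. Of the further genes, those with a summit within 1 kb of the start, the 3 with the most summits per 100 kb and those with none are named, except some that are not reported here, and the polyglutamine genes were added after their values were seen. Another gene is named only where a summit lies in it or within 1 kb of its start, except Dmwd, which has the start nearest to the summits upstream of Dmpk. Analyses used Python 3.11.15 with numpy 2.4.6, scipy 1.17.1, pandas 2.3.3, numba 0.67.0 and pysam 0.24.0.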

Additional observations from a re-analysis of the deposited data

How the results depend on the processing

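No paired analysis was possible because there was 1 library per antibody. Counting peaks with a score of at least 100 left 17 of 33 summits at the 7 genes. The median distances of the 7 genes to the nearest summit became 12076 bp from the start and 20240 bp from the end. No medians over all genes are given at that score. Counting within 150 bp of the summits gave a CTCF to IgG ratio of 12.9 in the peaks instead of 8.12 (no value could be had for Atn1 alone, with 0 IgG tags). Scaling to tags outside peaks gave 1.22 instead of 1.10 outside the peaks and 1.45 instead of 1.30 in the whole regions. A window of 50 bp found a motif at 33.3% of the summits instead of 72.7%, where all summits gave 36.4%. With the gene body only counted, 10 of the 23 further genes held a summit instead of 16, where all protein-coding genes gave 36.0% instead of 70.7%. Of 64 alternatives over 27 results, 49 stayed within 1.5 times the count or within the interval, 15 did not, and 0 reversed. In-frame runs of at least 4 CAG or CAA codons, added after seeing the data, occur in Atxn7 and Htt only and gave 0 genes with a summit within 5 kb. The longest in-frame runs of the other 5 genes, of 2 or 3 codons, had a summit at 1260 to 4984 bp. No share over all genes is given for in-frame runs that short, so these distances are descriptions only. Heights of 8 to 14 tags, as at Dmpk and Six5, rest on few reads.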
